A study of Mus musculus with 4 samples.

Results

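The heat shock genes described here encode 10 molecular chaperones and co-chaperones. Hspa1a, Hspa1b, Hsph1, Hspb1, Hsp90aa1 and Dnajb1 are strongly inducible by stress, and Hspa8, Hspa5, Dnaja1 and Hspe1 are grouped here as constitutive. The name of the second group does not mean that stress cannot induce its genes. All 10 were taken from the deposited value table by the gene symbol that the array platform gives each probe. Of the 10 genes, 9 had a probe, among 16593 named genes with a probe, and together they had 12 probes of the 25697 on the array. Hspa1b had no probe under its own name.

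RNA of whole mouse hearts was measured in 4 groups, all on a C57Bl6 background and all from mice of 8 to 9 weeks that carried floxed alleles of the mineralocorticoid receptor (MR flox/flox) and were uninephrectomised. CM-MRKO mice also carried MLC2v Cre, which is Cre recombinase under control of the ventricular myosin light chain gene, and were given DOC/salt or vehicle for 8 days. Wild-type mice (WT), with the floxed alleles and no Cre, were given the same DOC/salt or vehicle treatment for 8 days. RNA of 8 hearts was pooled in equal amounts for each group, and each pool was measured on 1 Illumina bead array. DOC is deoxycorticosterone, a steroid that activates the mineralocorticoid receptor and, given with salt, raises blood pressure and leads to cardiac inflammation and fibrosis. The gene that drives Cre is active in ventricular cardiomyocytes, so the deletion is aimed at those cells, and atrial cells, fibroblasts, vessels and blood cells are not its target.

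Heat shock proteins bind unfolded or damaged proteins and hold, refold or hand them on for degradation. HSP70 proteins work in a cycle driven by ATP, in which J-domain proteins deliver the client and stimulate ATP hydrolysis, and nucleotide exchange factors such as HSP110 release it. Under heat, ischaemia or oxidative stress the transcription factor HSF1 binds heat shock elements, which are inverted repeats of the letters GAA, and switches on the inducible genes; in heart, HSP70 and small heat shock proteins are known for protection against ischaemic injury.

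RefSeq windows of 250 bases before to 50 bases after a start site (build GRCm38.p6) were available for 8 of the 10 genes, and not for Hspa8 and Hsp90aa1. The letters searched were 2 inverted units, GAANNTTC or TTCNNGAA, each of which reads the same pattern on both strands, and 3 units, GAANNTTCNNGAA or TTCNNGAANNTTC, which overlap the shorter pattern. At least 1 match of 2 units lay in a window of 6 of these 8 genes (Hspa1a, Hspa1b, Hsph1, Hspb1, Dnaja1 and Hspe1). Counted by window, 7 of the 12 windows of these genes held one, and 15.1% of all 32851 windows did. A run of 3 units lay in windows of 2 of them, Hsph1 and Hspe1. By window that was 3 of 12, against 0.603% of all windows. Dnaja1 and Hspe1 are in the constitutive group, so the groups do not follow these letters. Stretches of 30 bases are shown for 5 genes, to let a reader see the elements of the gene that differed most between the arrays and of 3 other genes detected on them; the capitals mark the matches, and the positions count back from the start site.
Hspa1a: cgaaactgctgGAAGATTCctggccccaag
Hspa1b: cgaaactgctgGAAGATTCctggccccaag
Hsph1: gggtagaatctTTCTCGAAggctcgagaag
Hspb1: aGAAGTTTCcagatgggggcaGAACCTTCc
Hspe1: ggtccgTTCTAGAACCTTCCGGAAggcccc
The Hspa1a stretch is chr17:34972242-34972271 on the minus strand, from position -115 to -86, and the Hspa1b stretch is chr17:34959324-34959353 on the minus strand; neither overlaps an annotated gene. Over the 250 bases before the start site these neighbouring genes were identical at 247 positions, and their coding sequences are also nearly the same. The sources used here do not say whether the probe named Hspa1a also binds Hspa1b transcripts, so its signal may come from either gene or from both. The Hspb1 stretch is chr5:135887801-135887830 on the plus strand, before the start of the gene and in no annotated gene. The Hsph1 stretch is chr5:149636351-149636380 on the minus strand and lies inside the annotated span of Hsph1. It shows only the match before the start site. The Hsph1 run of 3 units lies after the start site, at positions 37 to 49 of the same window, and is not in the stretch. The Hspe1 stretch is chr1:55088053-55088082 on the plus strand and lies inside the annotated span of Hspd1, the neighbouring chaperonin gene. The windows of Dnajb1 and Hspa5 held no match, which says only that these letters are not in those windows.

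The WT vehicle array stood apart from the other 3, and the results below that rest on it are given with that limit. The 75th percentile of its deposited intensities was 120.2, against 147.6 to 161.4 on the other arrays, and 29.4% of its probes were detected, against 32.6% to 34.2%. Detection was judged against 1341 probes for odorant, vomeronasal and taste receptors: a probe passed if fewer than 1% of these reached its brightness on that array. The resulting limits were intensities of 121.8 for CM-MRKO DOC/salt, 119.9 for CM-MRKO vehicle, 113.7 for WT DOC/salt and 108.8 for WT vehicle. The targeted receptor gene Nr3c2 had 0 named probes, so the genotype labels have no check from it. Of 8 cardiomyocyte markers 7 had a probe and 5 were detected on all 4 arrays; Ryr2 was not detected on any array.

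Of the 9 heat shock genes with a probe, 6 were detected: Hspa1a, Hsph1, Hspb1 and Dnajb1 of the inducible genes, and Hspa8 and Hspe1 of the constitutive ones. Hsp90aa1 (the inducible cytosolic HSP90), Hspa5 (the HSP70 of the endoplasmic reticulum, also called BiP) and Dnaja1 (a J-domain partner of cytosolic HSP70) were not well above background on any array. Their 5 probes lay between intensities of 79.0 and 96.8, below the limit of every array, so nothing is said below about their response. With 1 pool for each group there is no spread between replicates and no test. A difference is instead set beside a technical spread, the SD between probes of one gene divided by the square root of 2, which holds no variation between animals. This spread is an SD and not a cut-off. It pools detected probes of all intensities, so it is not specific to a dim probe such as that of Hspa1a. In whole-heart RNA, fewer cells of a type and less RNA per cell cannot be told apart.

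Hspa1a encodes inducible HSP70, which is scarce in unstressed tissue. Its deposited intensities were 239.4 in CM-MRKO DOC/salt and 139.4 in CM-MRKO vehicle, and 108.5 in WT DOC/salt against 191.3 in WT vehicle. The order over the arrays thus ran in opposite directions in the 2 genotypes, and the WT DOC/salt value was below the detection limit of its array, with 1.715% of receptor probes at least as bright. After background correction and quantile normalization the log2 values were 7.23 and 6.16 in the CM-MRKO DOC/salt and vehicle pools, and 5.62 and 7.61 in the WT DOC/salt and vehicle pools. Normalization turned the order of the brightest pair: CM-MRKO DOC/salt was the brightest array on the deposited scale and WT vehicle the brightest after it.

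Hsph1 encodes HSP110, the exchange factor that releases clients from HSP70. Its intensities were 785.3 in CM-MRKO DOC/salt and 532.1 in CM-MRKO vehicle, and 609.9 in WT DOC/salt against 345.5 in WT vehicle. Both DOC/salt pools were brighter than the vehicle pool of their own genotype.

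Hspb1 encodes HSP27 (HSP25 in mouse), a small heat shock protein that holds unfolding proteins and binds actin. It read 1749.1 in CM-MRKO DOC/salt and 1422.7 in CM-MRKO vehicle, and 1290.4 in WT DOC/salt against 894.5 in WT vehicle. Dnajb1 encodes HSP40, the main stress-inducible J-domain protein, and read 885.2 and 749.2 in the CM-MRKO DOC/salt and vehicle pools, and 780.3 and 534.5 in the WT DOC/salt and vehicle pools. For both genes CM-MRKO DOC/salt was the brightest array and WT vehicle the dimmest on this scale. After normalization Dnajb1 stood at 9.45 and 9.29 in the CM-MRKO DOC/salt and vehicle pools and at 9.39 and 9.48 in the WT DOC/salt and vehicle pools, which made WT vehicle the highest array for it.

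Hspa8 encodes HSC70, the constitutive cytosolic HSP70, and had 2 probes detected on all 4 arrays. The brighter probe read 4741 in CM-MRKO DOC/salt and 4177.8 in CM-MRKO vehicle, and 3874.7 in WT DOC/salt against 2278.4 in WT vehicle. The second probe read 3305.4 and 3072 in the CM-MRKO DOC/salt and vehicle pools, and 3874 and 3441.1 in the WT DOC/salt and vehicle pools. These probes agreed within CM-MRKO hearts and disagreed on WT vehicle, which was the dimmest array for the brighter probe and the second brightest for the other.

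Hspe1 encodes HSP10, the lid of the mitochondrial chaperonin that HSP60 forms. Its intensities were low, at 205.9 in CM-MRKO DOC/salt and 182.6 in CM-MRKO vehicle, and 184.9 in WT DOC/salt against 115.8 in WT vehicle, where it lay just above the detection limit. The 3 arrays other than WT vehicle lay close together.

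**Figure D1:**
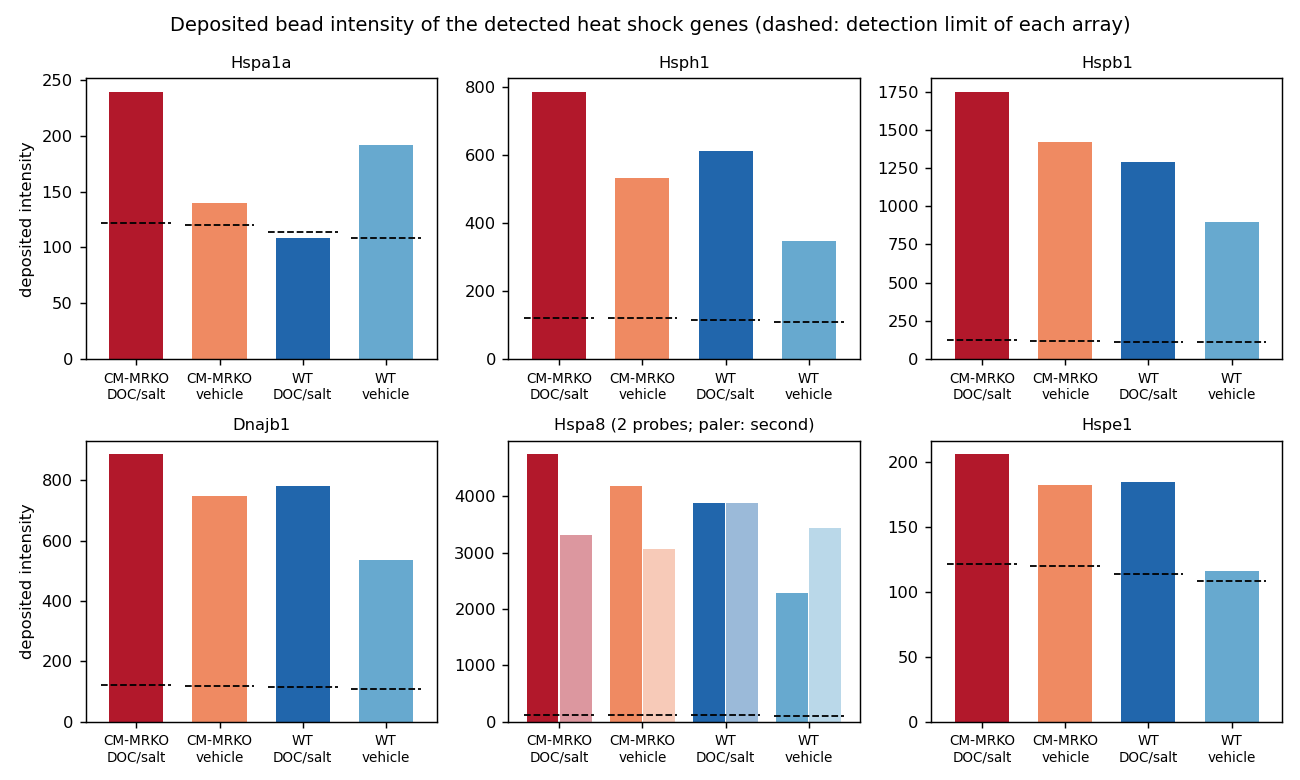
Deposited bead intensity (linear axis from 0) of the 6 detected heat shock genes on the 4 arrays, 1 bar for each pool of 8 hearts; Hspa8 has 2 probes and the paler bars are its second probe. Hspa1a lies below the dashed detection limit on the WT DOC/salt array alone, at 108.5, and the other genes lie above it on every array.

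The response to DOC/salt was read first in CM-MRKO hearts, whose cardiomyocytes are meant to lack the receptor. All 6 detected heat shock genes had higher normalized values in CM-MRKO DOC/salt than in CM-MRKO vehicle, with a median log2 difference of 0.19. Over the 6668 genes tested the median was 0.01, and 51.2% of them lay above 0. Hspa1a was 2.11-fold higher (log2 difference 1.07), and only 0.03% of the genes tested were at least as high. Hsph1 was 1.45-fold higher (0.54), where 0.97% were at least as high. Hspb1 differed by 0.22 and Dnajb1 by 0.16, while the constitutive Hspe1 and Hspa8 differed by 0.12 and 0.07; the second Hspa8 probe differed by 0.05.

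Thus 1 of the 6 genes, Hspa1a, was at least 1.5-fold higher, and 0.630% of all genes tested were. The technical spread in this comparison was 0.17, close to the SD of 0.20 over all genes tested. Hspa1a, Hsph1 and Hspb1 exceeded that spread and Dnajb1, Hspe1 and Hspa8 did not. For Hspb1 the margin was small, and 12.43% of genes tested were at least as high. The 4 inducible genes had a median of 0.38 and the 2 constitutive genes a median of 0.10. The inducible genes therefore lay 0.28 above the constitutive ones, which is a difference between small lists and has no error of its own beyond the technical spread. Hspa1a was at least 1.5-fold higher under each of the 9 alternatives run for it, with log2 differences of 0.67 to 1.12. Those that changed the probes or the filter could only repeat 1.07, as Hspa1a has 1 probe, detected on both arrays.

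Between genotypes, the DOC/salt pools were compared next. All 6 genes again had higher normalized values in CM-MRKO than in WT, with a median log2 difference of 0.21, beside 0.02 over the 6689 genes tested, of which 53.2% lay above 0. On the normalized scale Hspa1a was at least 2.79-fold higher in CM-MRKO. This bound was set by the lowest detected signal on the WT array, since the WT value of Hspa1a was undetected. The bound does not hold on other scales: Hspa1a was 2.21-fold higher on the deposited intensities. Log2 differences under the alternatives run for it ranged from 0.93 to 1.68. Hspb1 was 1.27-fold higher (log2 difference 0.35) and Hsph1 1.23-fold higher (0.30), where 5.82% and 9.04% of genes tested were at least as high.

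Hspa8 differed by 0.13, Dnajb1 by 0.07 and Hspe1 by 0.04 between the DOC/salt pools, all under the technical spread of 0.19. The second Hspa8 probe had the opposite sign, at -0.37. Only Hspa1a passed 1.5-fold among the 6, against 0.882% of genes tested that were higher by that much; 0 of the 6 were lower, against 0.942%. The inducible median was 0.32 and the constitutive median 0.08, a gap of 0.24. This comparison and the first share the CM-MRKO DOC/salt array, so a high value on that array enters both.

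**Figure D2:**
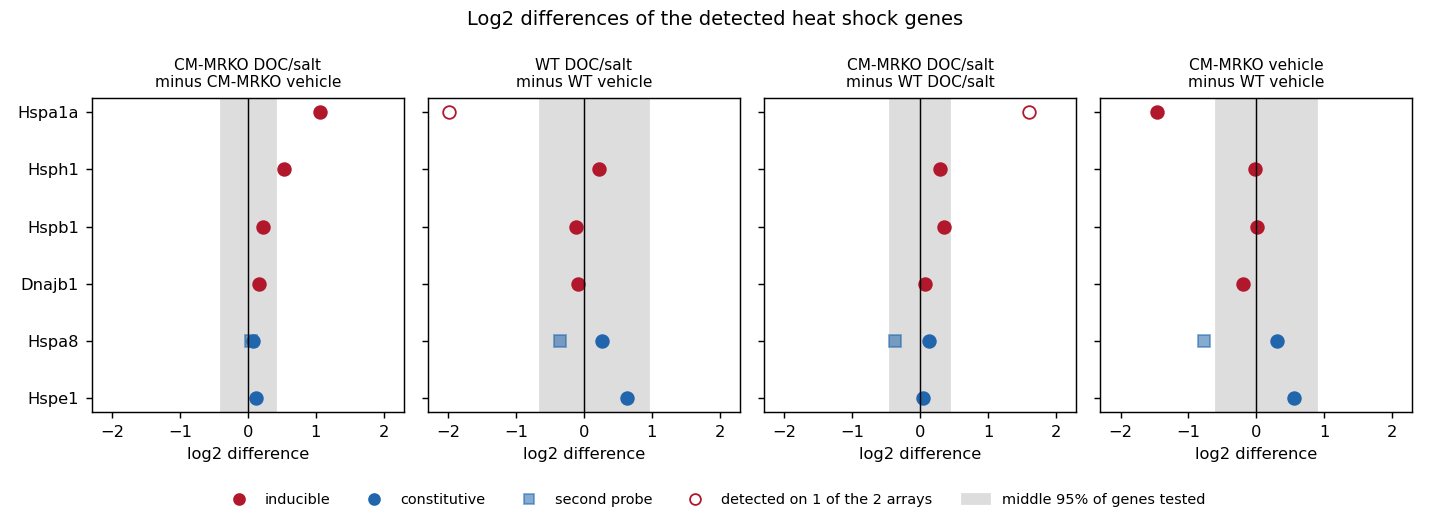
Log2 differences of the 6 detected heat shock genes (rows) in the 4 comparisons between pairs of arrays (panels), with circles for the brightest probe of a gene, squares for the second Hspa8 probe, and open circles where 1 of the 2 arrays was below detection. Hspa1a lies outside the grey band, which holds the middle 95% of genes tested, in every panel, and Hsph1 lies outside it for CM-MRKO DOC/salt minus CM-MRKO vehicle, at 0.54 against an upper bound of 0.42; the second Hspa8 probe lies outside it for CM-MRKO vehicle minus WT vehicle, at -0.77 against a lower bound of -0.59.

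The response of WT hearts to DOC/salt rests on the WT vehicle array. On the normalized scale Hspa1a was at least 3.64-fold lower after DOC/salt. This bound takes the undetected DOC/salt value at the lowest detected signal of its array. It does not hold on other scales, and Hspa1a was 1.76-fold lower on the deposited intensities. Hspe1 was 1.56-fold higher (log2 difference 0.64). It was past 1.5-fold on the deposited intensities (0.68) and with median scaling (1.02). It was under 1.5-fold without background correction (0.39), with an offset of 50 (0.47) and with scaling to detected probes (0.51). The other alternatives run for it repeated 0.64, as Hspe1 has 1 probe, detected on both arrays. Hspa8 differed by 0.26 on its brighter probe and by -0.35 on its second, Hsph1 by 0.22, Dnajb1 by -0.09 and Hspb1 by -0.11, all near or under the technical spread of 0.33. The median over the 6 genes was 0.07, beside -0.05 over the 6391 genes tested.

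By 1.5-fold, 1 of 6 genes was higher and 1 lower in the WT response, where 12.9% of genes tested passed in either direction, 8.79% higher and 4.08% lower. The inducible median was -0.10 and the constitutive median 0.45, the reverse order of that in CM-MRKO hearts. The constitutive median is that of 2 genes, Hspe1 at 0.64 and Hspa8 at 0.26 on its brighter probe. These medians moved with the scaling of the arrays: scaling each array to its median gave 0.39 for the inducible genes and 0.81 for the constitutive ones, and the deposited intensities gave 0.54 and 0.72. Hspa1a was lower under all 7 alternatives run for it, from -2.07 to -0.82, each computed with the undetected DOC/salt value. Those that changed the probes or the filter could only repeat the main value of -1.99, as Hspa1a has 1 probe. The other 3 inducible genes read higher after DOC/salt on the deposited scale, with differences of 0.82 for Hsph1, 0.55 for Dnajb1 and 0.53 for Hspb1.

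The genotypes without DOC/salt were compared on the vehicle pools, again with the WT vehicle array. Hspa1a was 2.75-fold lower in CM-MRKO (log2 difference -1.46), and 1.37-fold lower on the deposited intensities, which is under 1.5-fold. Hspe1 differed by 0.56 and Hspa8 by 0.31, with -0.77 on the second Hspa8 probe. Dnajb1, Hsph1 and Hspb1 differed by -0.19, -0.02 and 0.01, under the technical spread of 0.33. Counted by the brightest probe, 1 of 6 genes was lower by 1.5-fold and 0 higher, where 2.59% of the 6364 genes tested were lower and 7.45% higher.

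The WT response was then subtracted from that of CM-MRKO hearts, which again rests on the WT vehicle array. The genotypes differ in the presence of MLC2v Cre as well as in the intended loss of the receptor, and these cannot be told apart. Whether the response depends on the receptor in cardiomyocytes was not tested. Because Hspa1a was undetected in WT DOC/salt, its difference is a bound, at least 2.94 on the normalized log2 scale. That bound does not hold on other scales, and the deposited intensities gave 1.60. Hspb1, Hsph1 and Dnajb1 stood at 0.34, 0.32 and 0.25, all under the technical spread of 0.37, and each turned negative on the deposited intensities, at -0.23, -0.26 and -0.31. Hspe1 stood at -0.52 and Hspa8 at -0.19. By 1.5-fold 1 of 6 genes was higher and 0 lower, where 16.9% of the 6830 genes tested passed in either direction, 6.79% higher and 10.1% lower. The inducible genes lay 0.68 above the constitutive ones, 0.49 above them with median scaling and 0.30 above them on the deposited intensities.

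**Figure D3:**
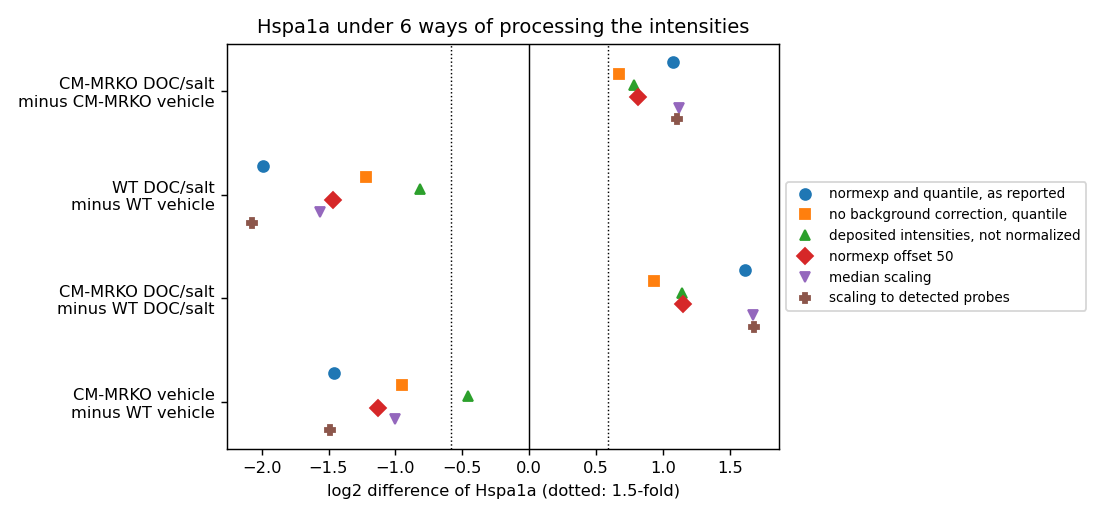
Log2 difference of Hspa1a in the 4 comparisons between pairs of arrays (rows) under 6 ways of processing the same intensities (symbols); the dotted lines mark 1.5-fold. Each comparison keeps its direction, but the size ranges from 0.67 to 1.12 in the top row and from -2.07 to -0.82 in the row below it, and the deposited intensities give less than 1.5-fold in the bottom row. The rows with WT DOC/salt use a Hspa1a value below detection on that array.

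The 5 genes whose pattern over the 4 arrays came closest to that of Hspa1a were Ulk4, Rabep2, Trpv4, Rrp9 and Ifna1, among 6829 others detected on at least 1 array. Likeness was the root mean square difference of log2 values centred over the arrays, which ran from 0.37 for Ulk4 to 0.49 for Ifna1. Ulk4 was detected on 3 arrays and Rabep2, Trpv4 and Ifna1 on 2 each. Their intensities, from 97.7 to 156.3, lay near the detection limits. Only Rrp9, of ribosomal RNA processing, was detected on all 4 arrays, with intensities of 228.5 and 196.8 in the CM-MRKO DOC/salt and vehicle pools and 153.9 and 177.4 in the WT DOC/salt and vehicle pools. None of Hsph1, Hspb1, Dnajb1, Hspa8 and Hspe1, the other heat shock genes in that search, was among the 5 closest genes.

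Beyond these genes, 74 further chaperone and stress genes were listed in 9 groups, of which 69 had a probe. In the CM-MRKO response 52 were tested and 0 passed 1.5-fold, where 1.05% of all genes did in either direction; 31 lay above 0 and 21 below, with a median of 0.05. Hspa1l, an HSP70 gene next to Hspa1a known mainly from testis, differed by 0.45, and its intensities were 176.9 in CM-MRKO DOC/salt and 138.3 in CM-MRKO vehicle. Calr, a calcium-binding lectin chaperone of the endoplasmic reticulum, differed by 0.48, and Dnaja4, a J-domain protein, by 0.40. Of the HSP90 co-chaperones 8 were tested, and 6 lay above 0 and 2 below, with a median of 0.16, where the technical spread was 0.17. Those detected in both pools were Stip1 (HOP, which links HSP70 to HSP90) at 0.30, Unc45b (a myosin chaperone) at 0.26, Ahsa1 (an activator of the HSP90 ATPase) at 0.20, Chordc1 at 0.13 and Fkbp4 at 0.03. The 2 below 0 were Cdc37, which brings kinases to HSP90, at -0.26 and Fkbp5 at -0.05. Cdc37 read 121.5 in CM-MRKO DOC/salt, below detection, and 126.7 in CM-MRKO vehicle. Ptges3 (p23) differed by 0.39, at 124.8 in CM-MRKO DOC/salt and 105.1 in CM-MRKO vehicle, where it was undetected.

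Of 6 small heat shock proteins other than Hspb1, 5 lay below 0 in the CM-MRKO response, with a median of -0.06. All 6 were within the technical spread of 0.17, and the values ran from -0.12 for Hspb7 and Hspb8 to 0.15 for Hspb2. Cryab, the abundant alpha-B crystallin of muscle, differed by -0.09, at intensities of 5874.1 in CM-MRKO DOC/salt and 5884.8 in CM-MRKO vehicle. Bag3, a partner of HSP70 and Hspb8 in the removal of damaged muscle proteins, differed by 0.18, and Hsf4, a heat shock factor, by -0.39. Hsf1 had no named probe and Hsf2 was not detected.

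Between the DOC/salt pools 53 of the further genes were tested and 0 passed 1.5-fold, where 1.82% of all genes did in either direction; 30 lay above 0, with a median of 0.02. Ddit3 (CHOP), a transcription factor of the unfolded protein response, differed by 0.44, but its second probe differed by -0.03. Stip1 differed by 0.38, Hspa1l by 0.37 and Hspa2, an HSP70 gene, by 0.33 on its brighter probe and by -0.23 on a second, dimmer one, while Atf4 differed by -0.39 and Dnajb4, detected in WT DOC/salt alone, by -0.57.

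**Figure D4:**
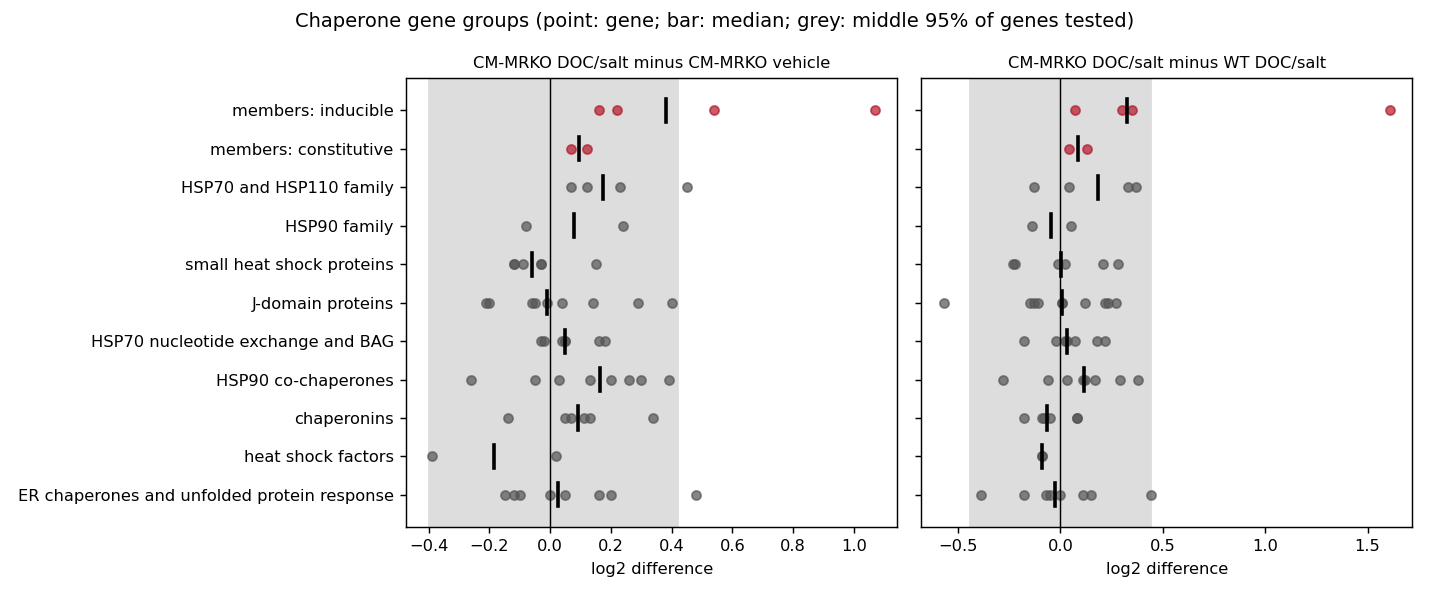
Log2 differences of heat shock genes (red) and of 9 further chaperone groups (dark grey) for the CM-MRKO response to DOC/salt (left) and for CM-MRKO against WT under DOC/salt (right); each point is a gene, each bar a group median, and the grey band the middle 95% of genes tested. Hspa1a is the point farthest to the right in both panels, at 1.07 on the left and at 1.61 on the right, where its WT value was undetected and the bound is 1.48; no gene of the further groups passes 1.5-fold.

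In the WT response 6 of 51 further genes were higher by 1.5-fold and 2 lower, beside 8.79% and 4.08% of all genes. The higher ones were Hspd1 (HSP60) at 1.93, Hspa9 (mortalin, the mitochondrial HSP70) at 1.01, the cytosolic chaperonin subunits Cct8 and Tcp1 at 0.84 and 0.71, Hsbp1, a binding protein of HSF1, at 0.61, and Hsp90b1, the HSP90 of the endoplasmic reticulum, at 0.60. Second probes did not show the same size: Hspd1 read 386.7 in WT DOC/salt and 268 in WT vehicle on its second probe, a normalized difference of -0.06, against 564.5 and 144.7 on its brighter one. The second Hspa9 probe differed by 0.14. The lower genes were Fkbp5, a steroid-induced HSP90 co-chaperone, and Hspb2. Fkbp5 read 109.2 in WT DOC/salt, where it was undetected, and 120.9 in WT vehicle. Hspb2 was at -0.62 after normalization and at 0.09 on the deposited intensities, with 622.8 in WT DOC/salt and 586.5 in WT vehicle, so its direction depended on the scaling.

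In the vehicle pools 4 of 50 further genes were higher in CM-MRKO than in WT and 1 lower, beside 7.45% and 2.59% of all genes. Hspd1 was at 1.5 on its brighter probe and -0.43 on its second, and Hspa9 at 0.75 and -0.09 in the same way. Cct8 was at 0.86 and Tcp1 at 0.67. Fkbp5, the lower gene, was undetected in CM-MRKO vehicle, at 118.5, and read 120.9 in WT vehicle. This comparison and the WT response have the WT vehicle array in common.

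Markers of other cells and of acute stress were read on the same arrays. Immediate early genes, which respond within minutes to stress or handling, had a median of -0.01 in the CM-MRKO response, with 0 of 9 tested past 1.5-fold, and 0.17 between the DOC/salt pools, again with 0 of 9. In the WT response their median was -0.49, with 7 of 9 below 0 and 2 lower by 1.5-fold, beside 4.08% of all genes. On the deposited intensities that median was 0.15, and with median scaling 0.03. The difference of responses had a median of 0.44, with 3 higher by 1.5-fold and 1 lower, beside 6.79% and 10.1% of all genes. On the deposited intensities it was -0.02. Both comparisons rest on the WT vehicle array. Of the 4 neutrophil markers, 3 were detected in both CM-MRKO pools and 2 of these were higher by 1.5-fold, beside 0.630% of all genes tested. These were S100a8 at 0.78 and Retnlg at 0.70. Retnlg was under 1.5-fold without background correction (0.42), with an offset of 50 (0.51) and on the deposited intensities (0.52). In both DOC/salt pools 2 were detected, and both were higher by 1.5-fold in CM-MRKO, beside 0.882% of all genes tested. S100a8 differed there by 1.24 and S100a9 by 0.68 on the log2 scale. S100a9 was under 1.5-fold without background correction (0.47) and with an offset of 50 (0.55). S100a8 stayed past 1.5-fold in both comparisons under these settings. The summed intensity of the 4 markers was 2176.7 in CM-MRKO DOC/salt and 1359.8 in CM-MRKO vehicle, and 1028.5 in WT DOC/salt against 545.9 in WT vehicle. S100a8 was the largest part on every array, at 1578.5 and 888.5 in the CM-MRKO DOC/salt and vehicle pools and 660.9 and 249.3 in the WT DOC/salt and vehicle pools. It was detected on all 4 arrays, S100a9 on 3, Retnlg on 2 and Ltf on 1. Summed cardiomyocyte markers were 79272 and 72809 in the CM-MRKO DOC/salt and vehicle pools, and 64712 and 57523 in the WT DOC/salt and vehicle pools. These deposited sums ran in the order of array brightness, whose median fell from 102.7 on CM-MRKO DOC/salt to 91.5 on WT vehicle. After normalization the median of the cardiomyocyte markers was 0 in the CM-MRKO response and -0.03 in the WT response. It was 0.14 between the DOC/salt pools and -0.04 between the vehicle pools. These medians hide Pln, the 1 of 6 tested that was higher by 1.5-fold in the WT response and between the vehicle pools. It stood at 2.04 and 2.2 there, beside 8.79% and 7.45% of all genes past 1.5-fold higher, and was undetected on WT vehicle, at 94.6. Summed fibroblast markers were 5949.7 and 5749.6 in the CM-MRKO DOC/salt and vehicle pools, and 5468 and 1522.3 in the WT DOC/salt and vehicle pools, and Dcn alone made most of that gap, at 3886.7 in WT DOC/salt and 395.2 in WT vehicle. The other 4 markers summed to 1581.3 in WT DOC/salt and 1127.1 in WT vehicle. The part of neutrophils and of the other cell types in the heat shock values was not tested.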

How the data were processed

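Whole-heart RNA of 4 pools, 1 for each group, was measured on single-channel Illumina bead arrays; per the labels' protocols it was extracted from 30 mg of tissue and stained with Cy3. The value table used here, as the authors deposited it, holds bead intensities on a linear scale whose lowest values lie near 71.3 to 77.8 on each array. The submitters' processing notes name Partek and no other tool. A second table of 4 columns was not used, as its column names match no sample label. Groups came from the titles; these conflict with the protocol label, which gives vehicle to every sample, while titles and treatment labels give DOC/salt to 2 of the 4.

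With limma 3.58.1 (R 4.3.3), intensities were background-corrected by normexp (maximum likelihood, offset 16), quantile-normalized and put on the log2 scale; the steps were tested on simulated data. Each gene was represented by its brightest probe and tested where detected on at least 1 array of a comparison. Of 25697 probes, 23978 had 1 gene symbol, 0 had several and 1719 were unnamed here; 23962 matched GRCm38.p6 by gene identifier. Differences were counted at 1.5-fold. For a bound, an undetected probe was raised to the lowest normalized level of any detected probe on its array where it lay below that. Every heat shock gene is named. Of further lists, the genes past 1.5-fold and up to 4 others by size were to be named. A few more (Cdc37, Ahsa1, Chordc1, Fkbp4, Cryab, Bag3 and genes of single-group interest) were added after their values were seen. The heat shock genes, the inducible and constitutive groups, and the lists were chosen with earlier results of these data known. The number of arrays, 4, limits the precision. Alternatives changed background correction, normalization, probes, the filter on dim probes and the inducible group.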

Additional observations from a re-analysis of the deposited data

Results flagged for a closer look

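Hspa1a is singled out because its DOC/salt pool lay on opposite sides of the vehicle pool in the 2 genotypes: the log2 difference was 1.07 in CM-MRKO and -1.99 in WT, a difference of 3.07. Hspa1a was undetected in WT DOC/salt, so on the normalized scale the WT value is a bound of -1.86 or lower. The difference is at least 2.94 on that scale alone, and the deposited intensities gave 1.60. The normalized values of Hspb1 (0.22 and -0.11, a difference of 0.34) and Dnajb1 (0.16 and -0.09, a difference of 0.25) also had opposite signs, as did the median of the 4 inducible genes (0.38 and -0.10, a difference of 0.48). All of these rest on the WT vehicle array. On the deposited intensities the WT values were 0.53 for Hspb1, 0.55 for Dnajb1 and 0.54 for the inducible median, and with median scaling 0.37, 0.42 and 0.39, so those opposite signs were not seen there. With 1 pool for each group these differences were not tested, and for Hspb1 and Dnajb1 they were below the technical spread of 0.37.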

How the results depend on the processing

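No paired analysis was possible because each group has 1 pool. No called difference of the heat shock genes changed its direction; of the called genes in other lists Hspb2 (0.09) and Zfp36 (0.05) in the WT response and Klf4 (0.03) between the vehicle pools turned higher on the deposited intensities. Of 249 alternative values for single genes, 205 stayed within the technical spread and 44 did not. The 205 include alternatives of probes and filter that could only repeat the main value of a gene with 1 detected probe. In the 2 comparisons without the WT vehicle array, medians and the gap between inducible and constitutive genes stayed within the spread under every alternative run; normalization without that array, added after seeing the data, gave medians of 0.19 for the CM-MRKO response and 0.21 between the DOC/salt pools. That array could not be left out of the other 3 comparisons, which are built on it.

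Comparisons with WT vehicle moved with the scaling. On the deposited intensities the median of heat shock genes was 0.61 in the WT response, 0.64 between the vehicle pools and -0.28 for the difference of responses; with median scaling it was 0.50, 0.48 and -0.22. The gap between inducible and constitutive genes on the deposited intensities was -0.18 in the WT response and 0.30 for the difference of responses. Genes past 1.5-fold in the WT response numbered 4 on the deposited intensities and with median scaling, and 1 without background correction, with an offset of 50, with scaling to detected probes, or with genes detected on both arrays. Between the vehicle pools they numbered 4 on the deposited intensities and 3 with median scaling. For the difference of responses they numbered 2 with median scaling and 0 with genes detected on all 4 arrays. Between the DOC/salt pools none passed among genes detected on both, which leaves Hspa1a out.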
